A study of Mus musculus with 6 samples.

Results

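The 31 genes described here make, sense, take up, move and export cholesterol in the liver. They were chosen by symbol from a list, all 31 had a row among the 26608 gene symbols of the count table, and all 31 passed the filter on low counts. Msmo1 was read from the row of its older symbol, Sc4mol. By role, 17 encode enzymes of cholesterol synthesis, 4 sense sterols, 3 move or esterify cholesterol within the cell, and 7 belong to uptake and efflux. Liver RNA was sequenced from 3 LiKM mice and 3 LiK mice, each 6 weeks old. What the genotype names stand for is not in the labels. The published study is known to have deleted Mdm2, the ubiquitin ligase that keeps the tumour suppressor p53 low, in LiKM hepatocytes and not in those of LiK mice. The labels do not give the promoter that drives the deletion, the sex of the mice, their feeding state or the hour of collection.

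Hepatocytes make cholesterol from acetyl-CoA through mevalonate and squalene. When the endoplasmic reticulum is poor in sterol, the escort protein Scap carries the transcription factor SREBP-2, the product of Srebf2, to the Golgi, where it is cut and released to switch on the synthesis genes. Insig1 and Insig2 encode proteins that hold Scap back when sterol is plentiful. When oxysterols accumulate, the nuclear receptor LXR instead switches on exporters such as Abca1, Abcg1, Abcg5 and Abcg8, and Mylip, whose product marks lipoprotein receptors for breakdown.

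Each library held between 19909993 and 24874343 counts. Mdm2, the targeted gene, lay at 122, 125 and 60.5 CPM in LiKM 1, LiKM 2 and LiKM 3 and at 28.7, 29.0 and 28.6 CPM in LiK 1, LiK 2 and LiK 3. It was higher in every LiKM library, with a log2 fold change of 1.83 (SE 0.27) and a Benjamini-Hochberg adjusted p of 0.0196 (edgeR, quasi-likelihood F test). The gene is itself a p53 target, and a count over all exons does not show a deletion within the gene, so its level does not check the genotype labels. Levels are counts scaled to a common library size (CPM) after scaling by the trimmed mean of M-values (TMM), and fold changes are LiKM over LiK. The labels name separate mice, so the tests set the genotype difference against the spread between 3 animals per genotype. The edgeR fit takes a single spread per gene over both genotypes. In bulk tissue, fewer cells of a type and less RNA per cell cannot be told apart.

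Most synthesis genes had higher mean levels in LiKM than in LiK, with a wide spread between LiK mice, and edgeR called none of them. edgeR called 0 of the 31 genes at a Benjamini-Hochberg adjusted p under 0.05, against 5.92% of the 13537 genes tested. At an unadjusted p under 0.05, 7 genes were higher and 3 lower in LiKM, where all genes gave 15.4% higher and 7.05% lower. The Wald test of DESeq2 called 2 genes, Abcg8 and Lcat, both lower in LiKM, where 10.4% of all genes were called and 2.46% were lower. limma-voom with sample weights called Abcg8 lower, where 9.77% of all genes were called and 1.92% were lower, and edgeR without the filter on low counts called Abcg8 lower, where 0.661% of all genes were. The LiKM and LiK libraries did not overlap for 6 of the 31 genes. Srebf2, Insig1 and Abcg1 were higher in every LiKM mouse (17.8% of all genes were), and Npc1, Abcg8 and Lcat were lower in every LiKM mouse (11.8% of all genes were).

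**Figure D1:**
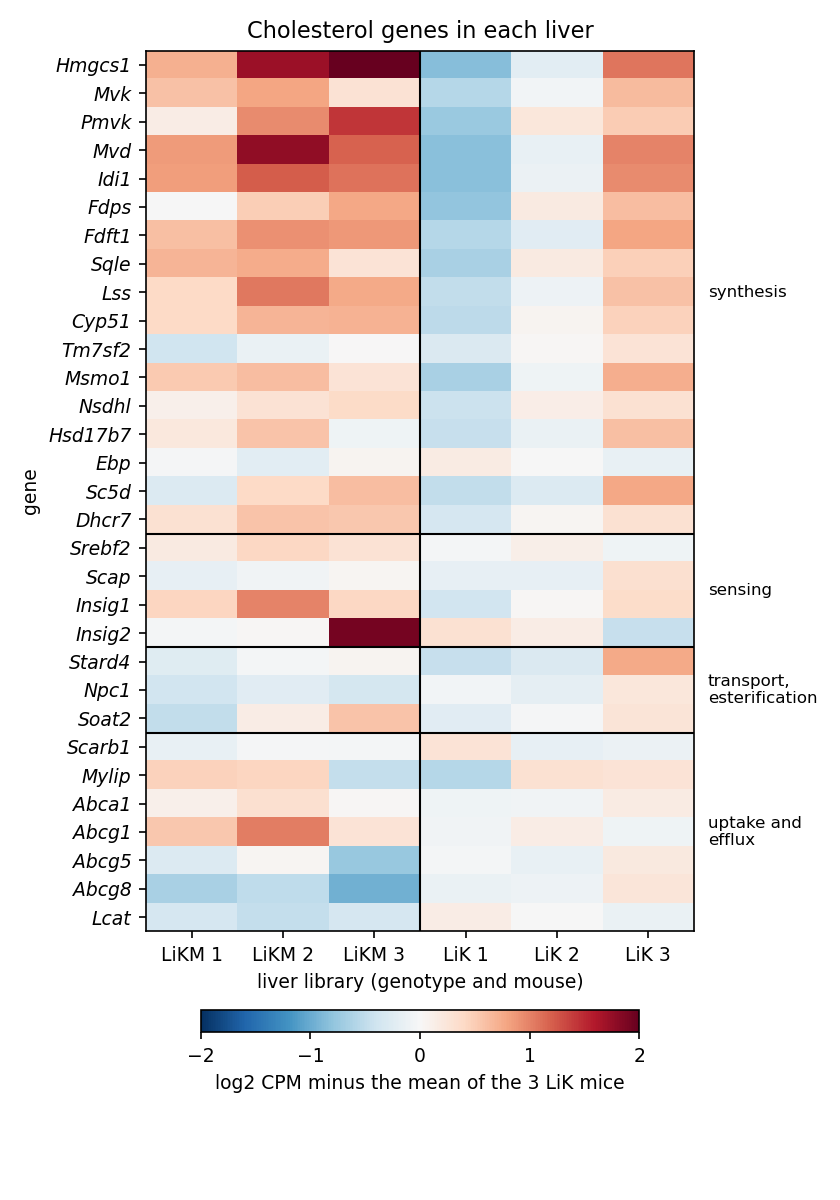
Level of each of the 31 genes in each liver, as log2 CPM minus the mean of the 3 LiK mice (colour), with genes in rows by role and libraries in columns. Colours stop at 2 in either direction, which Hmgcs1 in LiKM 3 exceeds. The synthesis rows are mostly pale red to dark red in the LiKM columns and in LiK 3, and blue in LiK 1, and the Insig2 row stands out in LiKM 3 alone.

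The genes of the mevalonate steps, from acetoacetyl-CoA to farnesyl diphosphate, held the 4 largest fitted differences among the synthesis genes, with higher mean levels in LiKM. Hmgcs1 encodes the cytosolic enzyme that condenses acetyl-CoA with acetoacetyl-CoA. It lay at 173, 347 and 478 CPM in LiKM 1, LiKM 2 and LiKM 3 and at 58.9, 91.4 and 223 CPM in LiK 1, LiK 2 and LiK 3. LiKM 2 and LiKM 3 were above every LiK mouse, while LiK 3 was above LiKM 1. The means were 333 ± 153 CPM in LiKM and 124 ± 86.7 CPM in LiK (SD, n = 3 each), and the log2 fold change of 1.42 (SE 0.54) did not pass edgeR's threshold (Benjamini-Hochberg adjusted p = 0.181). Mvd, which decarboxylates mevalonate diphosphate to the isoprenoid unit, lay at 21.6, 41.0 and 27.3 CPM in LiKM and 6.64, 10.8 and 23.8 CPM in LiK, in mouse order. Again LiK 3 exceeded LiKM 1, and the log2 fold change of 1.12 (SE 0.46) missed the edgeR threshold (adjusted p = 0.207). Idi1, which interconverts the isomers of that unit, lay at 214, 277 and 253 CPM in LiKM and 67.2, 110.0 and 231 CPM in LiK. The LiKM mice were close together, with a highest level 1.30 times the lowest, while the LiK mice spread 3.44-fold. Its log2 fold change was 0.87 (SE 0.41), with an edgeR adjusted p of 0.266.

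Pmvk, the phosphomevalonate kinase gene, lay at 35.0, 60.7 and 85.6 CPM in LiKM and 18.8, 37.1 and 45.1 CPM in LiK, with a log2 fold change of 0.84 (SE 0.40). Mvk, the mevalonate kinase gene, lay at 33.7, 38.7 and 27.3 CPM in LiKM and 15.0, 21.4 and 34.7 CPM in LiK, with a log2 fold change of 0.49 (SE 0.30). Fdps, which builds farnesyl diphosphate, lay at 183, 259 and 315 CPM in LiKM and 106, 209 and 281 CPM in LiK, with a log2 fold change of 0.34 (SE 0.35). For all 6 mevalonate genes LiK 1 was the lowest of the 6 mice and LiK 3 was above LiKM 1. Their median log2 fold change was 0.85, against −0.0034 over all genes tested, and their edgeR adjusted p-values lay between 0.181 and 0.606.

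The promoters of the 3 mevalonate genes with the largest fitted differences are shown for the motifs linked to SREBP-2. The windows run from 250 bases before to 50 bases after an annotated start (RefSeq, GRCm38.p6), are written 5′ to 3′ on the gene's strand, and have matches to the sterol regulatory element TCACNCCAC and to CCAAT, the core bound by the SREBP partner NF-Y, in capitals on either strand. They lie at chr13:119690101-119690400, plus strand, for Hmgcs1, at chr8:122443373-122443672, minus strand, for Mvd, and at chr13:8885356-8885655, plus strand, for Idi1.
Hmgcs1: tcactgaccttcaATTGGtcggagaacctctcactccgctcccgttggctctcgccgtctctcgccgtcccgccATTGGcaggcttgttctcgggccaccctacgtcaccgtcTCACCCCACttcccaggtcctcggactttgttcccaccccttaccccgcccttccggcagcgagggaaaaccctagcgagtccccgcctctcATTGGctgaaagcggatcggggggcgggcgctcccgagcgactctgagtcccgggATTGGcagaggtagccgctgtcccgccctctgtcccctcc
Mvd: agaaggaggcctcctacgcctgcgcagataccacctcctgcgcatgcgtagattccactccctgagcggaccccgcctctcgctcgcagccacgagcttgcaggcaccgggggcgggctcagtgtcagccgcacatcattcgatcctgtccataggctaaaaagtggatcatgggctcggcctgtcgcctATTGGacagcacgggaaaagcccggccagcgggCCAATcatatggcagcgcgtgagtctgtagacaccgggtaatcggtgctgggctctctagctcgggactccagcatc
Idi1: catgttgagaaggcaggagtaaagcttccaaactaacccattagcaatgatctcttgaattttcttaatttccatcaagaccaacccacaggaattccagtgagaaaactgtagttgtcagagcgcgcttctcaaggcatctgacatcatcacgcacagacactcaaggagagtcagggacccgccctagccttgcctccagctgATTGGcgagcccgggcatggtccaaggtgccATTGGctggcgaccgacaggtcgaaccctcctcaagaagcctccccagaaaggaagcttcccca
The Hmgcs1 window held a match to TCACNCCAC that begins 137 bases before the start, and 4 matches to CCAAT. The Mvd and Idi1 windows held 2 CCAAT matches each. RefSeq windows were matched for 23 of the 31 genes, 14 of them synthesis genes. All 14 synthesis genes had CCAAT in at least 1 window, as did 4 of 5 uptake and efflux genes and 41.1% of the 27025 genes in the table. The only match in the Abcg5 window lies after its annotated start and is also a match in the overlapping Abcg8 window. TCACNCCAC occurred in 1 of the 14, Hmgcs1, and in 1.44% of all genes. These matches are descriptions of letters and were not tied to binding.

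The genes of the squalene and sterol steps had a smaller median difference. Fdft1 encodes squalene synthase, the first step committed to sterols. It lay at 129.7, 162 and 157 CPM in LiKM 1, LiKM 2 and LiKM 3 and at 57.6, 73.7 and 149 CPM in LiK 1, LiK 2 and LiK 3. LiK 1 and LiK 2 were below every LiKM mouse and LiK 3 was within the LiKM range. Its log2 fold change was 0.68 (SE 0.33), short of edgeR's threshold (Benjamini-Hochberg adjusted p = 0.286). In the GENCODE annotation, 18.3% of the exonic bases of Fdft1 also belong to Ctsb on the opposite strand, so its count is uncertain where strand was not used in counting. Lss, which closes squalene epoxide into the sterol ring, lay at 78.8, 124 and 101 CPM in LiKM and 42.8, 56.1 and 89.6 CPM in LiK, with a log2 fold change of 0.69 (SE 0.29). Sqle, the squalene epoxidase gene, lay at 177, 184 and 133 CPM in LiKM and 70.4, 124 and 153 CPM in LiK, with a log2 fold change of 0.50 (SE 0.28). Cyp51, which removes a methyl group from lanosterol, lay at 168, 204 and 206 CPM in LiKM and 88.7, 133 and 175 CPM in LiK, with a log2 fold change of 0.54 (SE 0.24). For these 3 genes LiK 1 was the lowest mouse and LiK 3 lay within the LiKM range.

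The late steps of the ring were more mixed. Dhcr7, which makes cholesterol from its last precursor, lay at 139, 168 and 164 CPM in LiKM and 89.0, 115 and 139 CPM in LiK. LiK 3 and LiKM 1 were nearly equal, and the log2 fold change was 0.46 (SE 0.18), with an edgeR adjusted p of 0.184. Msmo1, a sterol methyl oxidase gene, was highest in LiK 3, at 165, 176 and 138 CPM in LiKM and 73.3, 108 and 189 CPM in LiK. Sc5d, the sterol desaturase gene, was likewise highest in LiK 3, at 302, 479.9 and 559.8 CPM in LiKM and 257, 301 and 619 CPM in LiK. The log2 fold changes of these 2 genes were 0.37 (SE 0.32) and 0.19 (SE 0.37). Nsdhl and Hsd17b7, dehydrogenase and reductase genes of demethylation, had log2 fold changes of 0.24 (SE 0.19) and 0.19 (SE 0.29). Nsdhl lay at 86.5, 98.7 and 105 CPM in LiKM and 59.7, 87.7 and 98.9 CPM in LiK. Hsd17b7 lay at 54.6, 70.5 and 44.5 CPM in LiKM and 34.1, 43.1 and 71.8 CPM in LiK. The genotypes overlapped for both. Tm7sf2, a sterol reductase gene, and Ebp, the sterol isomerase gene, were the only synthesis genes with negative values, −0.19 (SE 0.17) and −0.06 (SE 0.13). Tm7sf2 lay at 98.4, 118 and 131 CPM in LiKM and 106, 131 and 157 CPM in LiK, and LiKM 1 was its lowest mouse. Ebp lay at 174, 153 and 186 CPM in LiKM and 199, 177 and 161 CPM in LiK, and LiK 1 was its highest mouse. In GENCODE, 12.1% of the exonic bases of Tm7sf2 are shared with Vps51 and 26.7% of those of Fdps with Gm43738, on the same strand, so that both counts are uncertain. For Hmgcs1 12.1% and for Idi1 9.22% are shared with a gene on the opposite strand. Over the 11 genes the median log2 fold change was 0.37, with edgeR adjusted p-values between 0.184 and 0.802.

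**Figure D2:**
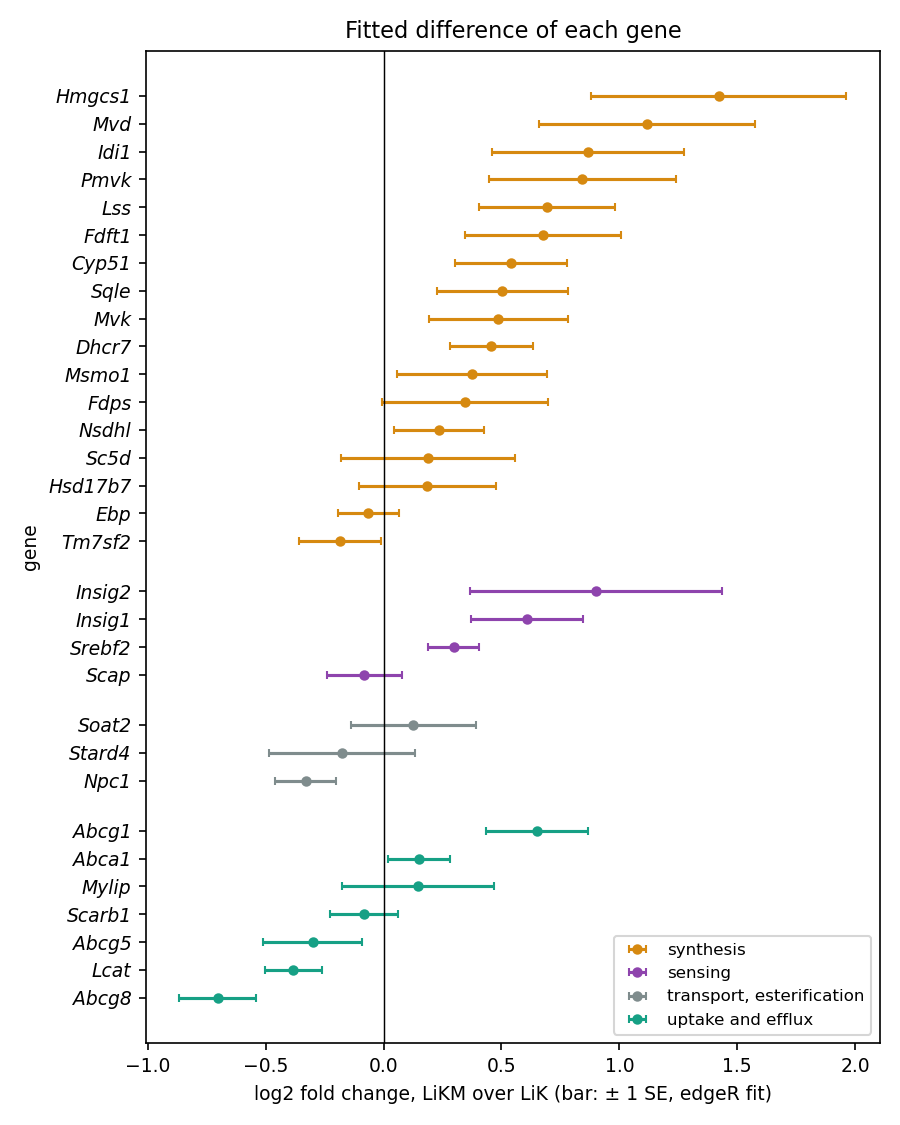
Fitted log2 fold change, LiKM over LiK, of each of the 31 genes (points; bars, 1 standard error either way in the edgeR fit), grouped by role and ordered within each. Hmgcs1 lies farthest right at 1.42 and Abcg8 farthest left at −0.70, and 15 of the 17 synthesis genes lie right of 0.

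The spread between mice was larger in LiK than in LiKM for every synthesis gene. On the log2 scale the SD between LiK mice exceeded that between LiKM mice for 17 of 17 synthesis genes, against 47.4% of all genes tested. The median SD of the synthesis genes was 0.253 in LiKM and 0.605 in LiK, where all genes gave 0.210 and 0.198 for the same genotypes. LiK 1 was the lowest of the 6 mice for 15 of 17 synthesis genes, against 2965 of the 13537 genes tested. LiK 3 was above both other LiK mice for 16 of 17, against 38.8% of all genes. It was above LiKM 1 for 15 of 17, against 6697 of the 13537 genes tested. The mean log2 CPM of the synthesis genes, set against the LiK mean, was 0.33, 0.73 and 0.67 in LiKM 1, LiKM 2 and LiKM 3, and −0.55, −0.03 and 0.58 in LiK 1, LiK 2 and LiK 3. LiK 3 thus stood between LiKM 1 and LiKM 3. LiK 1 and LiK 2 were both below every LiKM mouse for 12 of 17 synthesis genes, against 24.3% of all genes. The genes share libraries, so these counts describe the mice and are not separate observations.

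Of the sterol sensors, Insig1 and Srebf2 were higher in every LiKM mouse. Insig1, whose product retains Scap and which SREBP-2 itself switches on, lay at 426, 629 and 419 CPM in LiKM 1, LiKM 2 and LiKM 3 and at 242, 319 and 405 CPM in LiK 1, LiK 2 and LiK 3. LiK 3, the highest LiK mouse, was just below LiKM 3, the lowest LiKM mouse. The means were 491 ± 119 CPM in LiKM and 322 ± 81.7 CPM in LiK (SD, n = 3 each), with a log2 fold change of 0.61 (SE 0.24) and a Benjamini-Hochberg adjusted p of 0.188, not called by edgeR. Srebf2 lay at 66.7, 78.8 and 71.7 CPM in LiKM and 57.5, 63.7 and 55.6 CPM in LiK. Its log2 fold change of 0.30 (SE 0.11) was small, its mice lay close together in both genotypes, and it was not called by edgeR (adjusted p = 0.168). It was lowest in LiK 3. Scap lay at 113, 122 and 131 CPM in LiKM and 114, 114 and 160.0 CPM in LiK, with a log2 fold change of −0.08 (SE 0.16), and was highest in LiK 3. In GENCODE 13.2% of its exonic bases are shared with a gene on the opposite strand.

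Insig2 was high in a single LiKM mouse. It lay at 158, 164 and 608 CPM in LiKM 1, LiKM 2 and LiKM 3 and at 201, 180.1 and 117 CPM in LiK 1, LiK 2 and LiK 3. LiKM 1 and LiKM 2 were within the LiK range, and LiKM 3 was 3.84 times the lowest LiKM level. The log2 fold change of 0.90 (SE 0.53) was far from the edgeR threshold (adjusted p = 0.374) and was −0.06 without LiKM 3. In mouse liver Insig2 is known to be transcribed from more than a single start, with a liver form that is repressed by insulin and rises on fasting. RefSeq lists 3 windows for it, and gene counts do not separate them. The most upstream window, shown because Insig2 had the largest ratio of highest to lowest LiKM level among the 31 genes, lies at chr1:121332540-121332839, minus strand, with CCAAT in capitals on either strand.
Insig2: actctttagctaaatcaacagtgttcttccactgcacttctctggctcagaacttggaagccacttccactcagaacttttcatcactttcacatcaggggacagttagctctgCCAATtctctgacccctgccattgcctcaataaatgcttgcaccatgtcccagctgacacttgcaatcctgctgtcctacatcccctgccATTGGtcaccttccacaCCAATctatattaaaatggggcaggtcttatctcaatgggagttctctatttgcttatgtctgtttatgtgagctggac
It held 3 CCAAT matches and none to TCACNCCAC. The other 2 Insig2 windows held none of either.

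Clock genes stood apart in the same mouse. Arntl, the clock activator gene, lay at 2.02, 4.49 and 38.5 CPM in LiKM 1, LiKM 2 and LiKM 3 and at 7.94, 10.1 and 2.05 CPM in LiK 1, LiK 2 and LiK 3. Dbp, an output gene of opposite phase, lay at 41.6, 25.7 and 0.579 CPM in LiKM and 21.8, 24.0 and 139.9 CPM in LiK. Npas2, a partner of Arntl, did not pass the filter because it was scarce outside LiKM 3. It had 5, 6 and 452 counts in LiKM 1, LiKM 2 and LiKM 3, and 2, 2 and 5 in LiK 1, LiK 2 and LiK 3. LiKM 3 was the lowest of the 6 mice for 7 of 10 tested clock genes, against 2911 of the 13537 genes tested. LiK 3 had the highest Dbp and the highest Nr1d1, a clock repressor gene, at 29.6, 15.5 and 7.62 CPM in LiKM and 22.4, 24.5 and 96.4 CPM in LiK. edgeR called 0 of the 10 clock genes, and 0 had an unadjusted p under 0.05. Their median log2 fold change was −0.79. The part of these differences in the levels of Insig2 and of the synthesis genes was not tested.

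**Figure D3:**
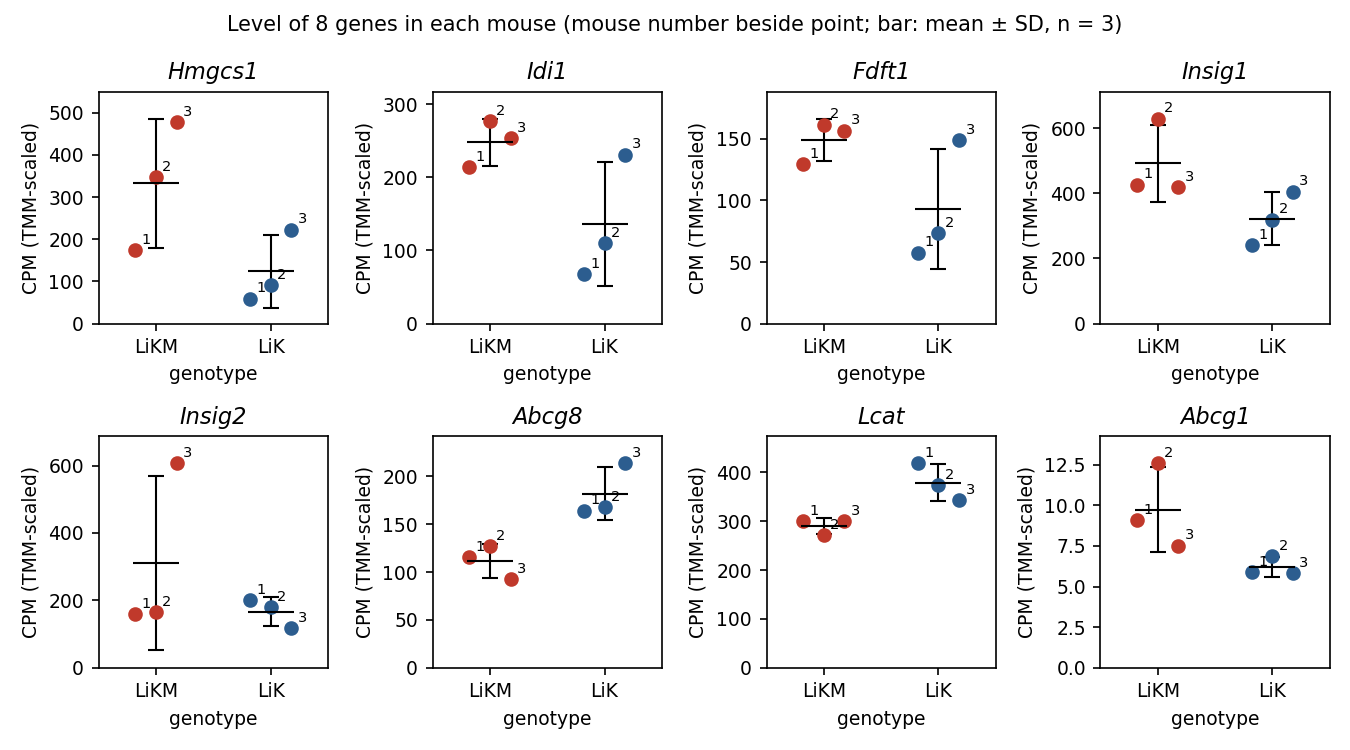
TMM-scaled CPM of 8 genes in each mouse (points, with the mouse number; horizontal bar and whiskers, mean ± SD, n = 3), LiKM left of LiK, each axis from 0. LiK 3 lies at the LiKM level for Idi1 and Fdft1, LiKM 3 alone is high for Insig2, and the genotypes do not overlap for Insig1, Abcg8, Lcat and Abcg1.

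The genes for movement and storage within the cell were not shifted together. Npc1, which carries cholesterol out of lysosomes, lay at 106, 117 and 107 CPM in LiKM 1, LiKM 2 and LiKM 3 and at 133, 121 and 161 CPM in LiK 1, LiK 2 and LiK 3. Every LiKM mouse was lower than every LiK mouse, with a log2 fold change of −0.33 (SE 0.13) and a Benjamini-Hochberg adjusted p of 0.192, not called by edgeR. Stard4, a sterol carrier gene, lay at 51.2, 58.9 and 63.0 CPM in LiKM and 44.0, 49.4 and 102 CPM in LiK, where LiK 3 alone was high. Soat2, the acyltransferase that esterifies cholesterol in hepatocytes, lay at 22.7, 35.8 and 47.8 CPM in LiKM and 27.3, 31.6 and 38.5 CPM in LiK, with overlap between genotypes. The log2 fold changes of Stard4 and Soat2 were −0.18 (SE 0.31) and 0.13 (SE 0.27), neither of them called by edgeR.

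Among the uptake and efflux genes, Abcg8 had the largest fitted difference and was lower in LiKM. Abcg8 and Abcg5 encode the 2 parts of the transporter that moves cholesterol into bile. Abcg8 lay at 116, 127 and 92.7 CPM in LiKM 1, LiKM 2 and LiKM 3 and at 164, 168 and 214 CPM in LiK 1, LiK 2 and LiK 3. Every LiKM mouse was below every LiK mouse. The means were 112 ± 17.6 CPM in LiKM and 182 ± 27.8 CPM in LiK (SD, n = 3 each), with a log2 fold change of −0.70 (SE 0.16), just short of the threshold in edgeR (Benjamini-Hochberg adjusted p = 0.0524). Over the alternatives tried its adjusted p ranged between 0.00317 in DESeq2's Wald test and 0.122 in the edgeR fit without LiK 2. Its partner Abcg5 lay at 138, 173 and 98.7 CPM in LiKM and 162, 151 and 192 CPM in LiK, so that LiKM 2 fell within the LiK range, and its log2 fold change was −0.30 (SE 0.21), with an edgeR adjusted p of 0.442.

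These 2 genes stand head to head on opposite strands, and 2.19% of the exonic bases of Abcg8 and 3.02% of those of Abcg5 are shared in GENCODE, which leaves a small part of their counts uncertain. The shared promoter region is shown because its 2 genes gave different fitted values. The Abcg8 window lies at chr17:84682871-84683170, plus strand, with CCAAT in capitals on either strand.
Abcg8: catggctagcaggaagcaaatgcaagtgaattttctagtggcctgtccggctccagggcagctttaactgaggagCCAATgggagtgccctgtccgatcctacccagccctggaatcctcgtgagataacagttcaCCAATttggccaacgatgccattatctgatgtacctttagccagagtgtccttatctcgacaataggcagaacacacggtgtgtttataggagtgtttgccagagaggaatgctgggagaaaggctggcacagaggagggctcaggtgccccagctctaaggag
It held 2 CCAAT matches and none to TCACNCCAC. RefSeq lists another Abcg8 window outside this region, at chr17:84676052-84676351, plus strand, which held none of either.

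Lcat, which esterifies cholesterol on high density lipoprotein in plasma, lay at 299.6, 272 and 301 CPM in LiKM 1, LiKM 2 and LiKM 3 and at 419, 375 and 343 CPM in LiK 1, LiK 2 and LiK 3. Every LiKM mouse was below every LiK mouse, with a log2 fold change of −0.38 (SE 0.12) and a Benjamini-Hochberg adjusted p of 0.118, not called by edgeR. Abcg1, an exporter to lipoprotein that is prominent in macrophages, was scarce, at 9.07, 12.6 and 7.52 CPM in LiKM 1, LiKM 2 and LiKM 3 and at 5.87, 6.89 and 5.83 CPM in LiK 1, LiK 2 and LiK 3. Every LiKM mouse was higher, and the log2 fold change of 0.65 (SE 0.22) missed edgeR's threshold (adjusted p = 0.133). Abca1, the exporter to lipid-poor apolipoprotein, lay at 255, 296 and 239 CPM in LiKM and 222, 226 and 264 CPM in LiK, with a log2 fold change of 0.15 (SE 0.13). Scarb1, the receptor that takes cholesteryl ester from high density lipoprotein, lay at 227, 249 and 246 CPM in LiKM and 305, 226 and 234 CPM in LiK, with a log2 fold change of −0.08 (SE 0.14). Mylip lay at 12.8, 12.6 and 6.65 CPM in LiKM and 6.21, 11.5 and 11.3 CPM in LiK, with a log2 fold change of 0.15 (SE 0.32). The genotypes overlapped for these last 3 genes.

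Some markers of macrophages, T cells and stellate cells rose in LiKM. Of 11 tested markers of Kupffer cells and macrophages, 5 rose in LiKM by edgeR's adjusted p and 0 fell, against 5.11% and 0.813% of all genes. Their summed level was 443 to 602 CPM in LiKM and 283 to 367 CPM in LiK, and none was at 0. Of 7 hepatocyte markers, 0 were called by edgeR and 3 were lower at an unadjusted p under 0.05, where 7.05% of all genes were. Their median log2 fold change was −0.29, and 5 of the 7 were negative, as were 6830 of the 13537 genes tested. Their summed levels were 107209 to 122835 CPM in LiKM and 99822 to 122334 CPM in LiK. These sums are mostly Alb, the albumin gene, which lay at 103215, 91378 and 96895 CPM in LiKM and 90131, 80638 and 101784 CPM in LiK. Of 6 T cell markers 5 rose, with sums of 8.65 to 11.8 CPM in LiKM and 2.34 to 6.02 CPM in LiK, where Cd3e was at 0 in LiK 3. The sums include Cd4, the marker that did not rise, which made up most of each LiK sum. Cd4 lay at 1.93, 1.95 and 1.30 CPM in LiKM and 4.96, 3.37 and 1.68 CPM in LiK. Its log2 fold change was −0.94 (SE 0.41), not called by edgeR. Of 6 stellate cell and fibroblast markers 3 rose, with sums of 455 to 500.4 CPM in LiKM and 153 to 286 CPM in LiK. Markers of cholangiocytes (4 tested of 5) and endothelium (5 of 5) held 0 calls by edgeR, with 3 and 1 of them higher and 0 and 1 lower at an unadjusted p under 0.05. Over all genes, 15.4% were higher and 7.05% lower at that threshold. All 4 tested cholangiocyte markers and 1 of 5 endothelial markers were higher in every LiKM mouse, where 17.8% of all genes were. The cholangiocyte log2 fold changes lay between 0.98 and 1.61. The sums of cholangiocyte and endothelial markers were 9.96 to 26.8 and 134 to 203 CPM in LiKM, and 5.25 to 8.23 and 137 to 153 CPM in LiK. Of the 3 adipocyte markers, Adipoq was at 0 in every library and Cidec alone was tested, at 2.73, 2.18 and 5.64 CPM in LiKM and 4.43, 4.03 and 4.23 CPM in LiK. The part of other cell types in the levels of Abcg1 and the other genes was not tested.

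Set side by side, synthesis and uptake with efflux differed in the size and spread of their values. The median log2 fold change was 0.49 over the 17 synthesis genes and −0.08 over the 7 uptake and efflux genes, against −0.0034 over all genes tested. Of the synthesis genes 15 had a positive value, and of the uptake and efflux genes 3 did, against 6707 of the 13537 genes tested. The mean log2 CPM of the uptake and efflux genes, set against the LiK mean, was −0.04, 0.12 and −0.32 in LiKM 1, LiKM 2 and LiKM 3, and −0.07, −0.01 and 0.08 in LiK 1, LiK 2 and LiK 3. LiKM 3, with a high synthesis mean, thus had the lowest uptake and efflux mean, and LiK 1, with the lowest synthesis mean, was near the LiK mean. The SD between mice of these means was 0.214 in LiKM and 0.567 in LiK for synthesis, and 0.224 in LiKM and 0.0739 in LiK for uptake and efflux. Of the 7 uptake and efflux genes, 2 had the larger SD in LiK. These 7 genes differ in role, and their log2 fold changes ran from −0.70 for Abcg8 to 0.65 for Abcg1. Their median and means therefore average opposite shifts and do not measure uptake or efflux as a unit.

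**Figure D4:**
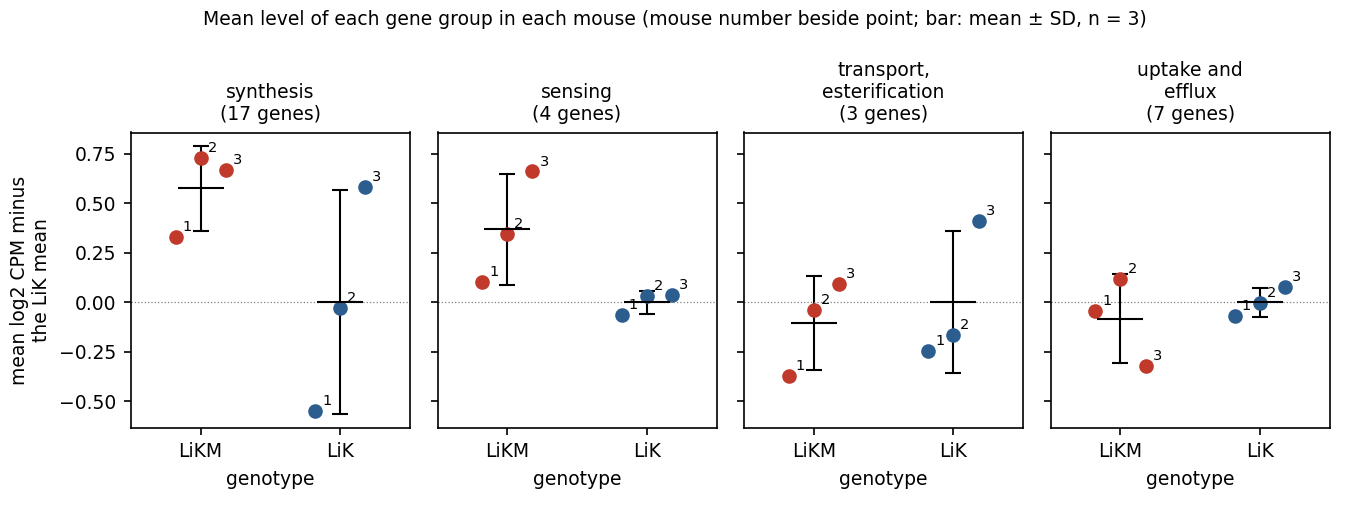
Mean log2 CPM of each gene group in each mouse, minus the LiK mean (points, with the mouse number; bar and whiskers, mean ± SD, n = 3), LiKM left of LiK. For synthesis, LiK 3 at 0.58 lies among the LiKM mice and far above LiK 1 at −0.55, while the uptake and efflux means of the LiK mice lie close together.

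Of the 6 edgeR fits that left out 1 library, the fit without LiK 3 was the only one that called synthesis genes. Without LiK 3, 2 synthesis genes were called higher in LiKM, Idi1 with a log2 fold change of 1.48 and an edgeR Benjamini-Hochberg adjusted p of 0.0458, and Fdft1 with 1.18 and 0.0384, where 1.91% of all genes were called higher in that fit. The number of synthesis genes higher at an unadjusted p under 0.05 was 13 of 17 without LiK 3, where 15.3% of all genes were, against 4 of 17 with all libraries, where 15.4% were. It was 5 of 17 without LiKM 1, where 13.7% of all genes were. It was 0 without LiKM 2, LiKM 3, LiK 1 or LiK 2, where 12%, 13.8%, 12.1% and 12.5% of all genes were. The synthesis median was 0.79 without LiK 3 and 0.24 without LiK 1. Hmgcs1 reached 2.14 without LiK 3 but was not called by edgeR (adjusted p = 0.0663). Without LiK 3 and LiKM 3 together, the mice whose clock genes stood apart, a choice made after the data were seen, the same 2 genes, Idi1 and Fdft1, were called higher by edgeR, against 3.64% of all genes, and the synthesis median was 0.77. Each such fit rests on 2 mice in at least 1 genotype.

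**Figure D5:**
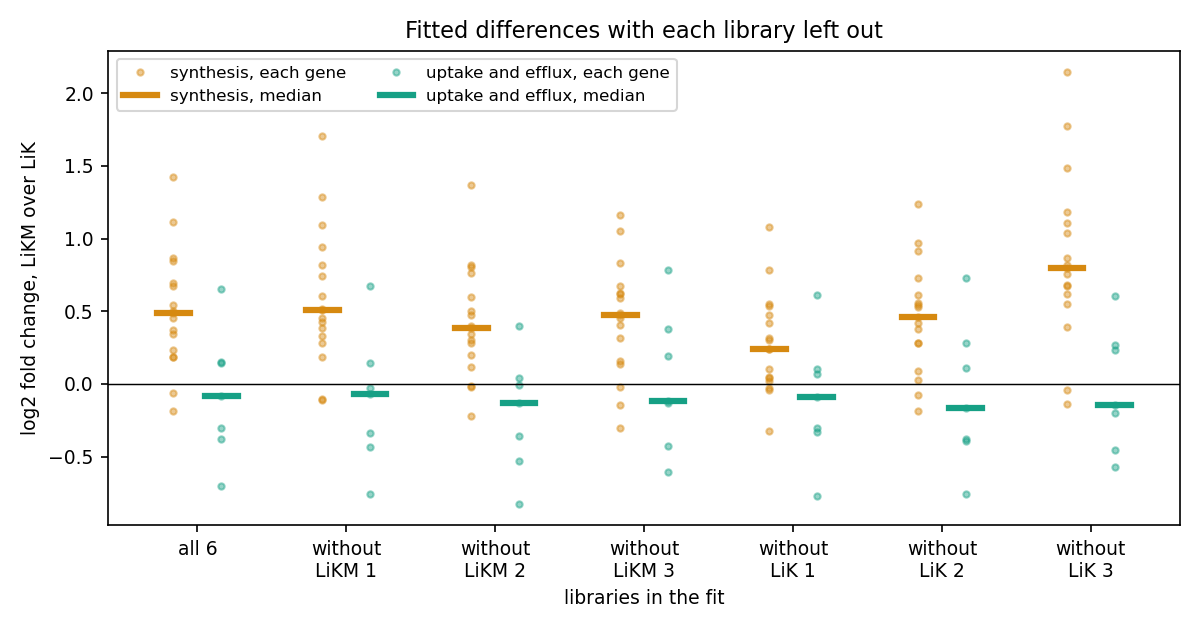
Fitted log2 fold change, LiKM over LiK, of each synthesis gene and each uptake and efflux gene (points) with their medians (bars), in the fit of all 6 libraries and with each library left out in turn. The synthesis median moves between 0.24 without LiK 1 and 0.79 without LiK 3, while the uptake and efflux median stays slightly below 0.

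Of 30 other listed genes of sterol handling, 28 were tested, 1 rose and 0 fell, against 5.11% and 0.813% of all genes, so the list held no more calls than the background. The riser was Soat1, which esterifies cholesterol in macrophages and other cells, at 5.26, 5.85 and 4.97 CPM in LiKM 1, LiKM 2 and LiKM 3 and at 2.99, 2.72 and 2.71 CPM in LiK 1, LiK 2 and LiK 3, with a log2 fold change of 0.93 (SE 0.18) and an edgeR Benjamini-Hochberg adjusted p of 0.0322. It was scarce, like Abcg1, and higher in every LiKM mouse. The list included the receptor genes Nr1h2 and Nr1h3, which encode the 2 forms of LXR, with log2 fold changes of 0.02 (SE 0.14) and −0.10 (SE 0.12). It also included Mbtps1 and Mbtps2, whose protease products release SREBP-2, with −0.03 (SE 0.10) and 0.34 (SE 0.14). None of these 4 was called by edgeR. Cyp27a1, a mitochondrial sterol hydroxylase gene, lay at 286, 171 and 244 CPM in LiKM and 448, 404 and 324 CPM in LiK and was lower in every LiKM mouse, but at −0.74 (SE 0.21) on the log2 scale it missed edgeR's threshold, with an adjusted p of 0.0923. The list median was 0.03. Ch25h and Npc1l1 were too scarce to be tested.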

How the data were processed

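Polyadenylated liver RNA was sequenced from 3 LiKM and 3 LiK mice with a stranded kit, per the labels' protocols. The authors deposited raw counts per gene symbol. The submitters' processing notes name featureCounts and FastQC 0.11.7. Not given in the sources used here are the aligner, build, annotation and strand setting. All 6 count columns matched a sample title by animal code.

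Counts were filtered with edgeR 4.0.16 in R 4.3.3 (default filter, a count of about 10 in at least 3 libraries and a total of at least 15), which left 13537 of 26608 symbols, and were scaled by TMM (factors 0.903 to 1.11). LiKM was compared with LiK by the quasi-likelihood test, with genotype as the only term and Benjamini-Hochberg adjustment over all genes tested, called under 0.05. Log2 CPM used a prior count of 2. SEs were derived from the fold change and its F statistic. Libraries of a genotype differed by a chi-square per gene of at least 34.5, so none was a repeat of another.

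The members and lists were chosen with earlier results of these data known. All 31 members are named, with Mdm2 and, of other sterol genes, those called. Nr1h2, Nr1h3, Mbtps1, Mbtps2, Cyp27a1, the named clock and fatty acid synthesis genes, Alb, Cd3e, Cd4, Adipoq, Cidec and Ctsb were named after their values were seen. Some sterol genes are not reported here. Promoters came from RefSeq (GRCm38.p6), and exon overlaps from GENCODE M21, which may not be the authors' annotation. By that annotation 11 of the 31 genes share over 1% of exonic bases with another gene.

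Alternatives were DESeq2 1.42.0 size factors and its Wald test, upper quartile scaling, limma-voom (limma 3.58.1) with sample weights, no filter, at least 1 CPM in 3 libraries, the replicate number as a block, and each library left out. On simulated counts for the LiKM against LiK design, 13388 genes passed the filter. Of these counts, edgeR found 60 of 100 genes changed 2-fold and 100 of 100 changed 4-fold. It called 9 of the 13337 genes simulated without a change, a number that includes genes removed by the filter. Every simulated gene had the same spread between mice, a biological coefficient of variation of 22.3%. These rates therefore do not hold for genes that vary more, as the synthesis genes did in LiK.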

Additional observations from a re-analysis of the deposited data

How the results depend on the processing

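The number of members called lower in LiKM was 0 in edgeR, and became 1 without a filter, 1 in limma-voom with sample weights and 2 in DESeq2's Wald test. The members were Abcg8 in each case and Lcat in DESeq2 alone. The number called higher was 0 and ranged between 0 and 2 over the fits that left out 1 library, 2 without LiK 3 (Idi1 and Fdft1) and 0 without any other library. It was 2 without LiK 3 and LiKM 3 together, a setting chosen after the data were seen. Over all genes, edgeR called 802, DESeq2 called 1546, limma-voom called 1323, and the fits without 1 library called 19 (without LiK 2), 31 (LiK 1), 47 (LiKM 2), 311 (LiK 3), 376 (LiKM 1) and 626 (LiKM 3). With all 6 libraries, 4 of 17 synthesis genes were higher at an unadjusted p under 0.05 in edgeR. The number was 7 without a filter and 8 in DESeq2's Wald test. It was 9 in limma-voom with sample weights and 9 with the replicate number as a block. The share of all genes at that threshold was not taken for these other fits. The median log2 fold change of the synthesis genes lay between 0.24 and 0.79 over all settings, and that of uptake and efflux genes between −0.17 and −0.01. Both medians stayed within the larger of the genotypes' SDs between mice (0.567 for synthesis, 0.224 for uptake and efflux), but moved by more than the smaller (0.214 and 0.0739) without LiK 3, with or without LiKM 3, and without LiK 1 (synthesis), and without LiK 2 (uptake and efflux). No member changed sign under another scaling or filter or in DESeq2, 1 did in limma-voom, and 0 to 5 did when 1 library was left out, none of them called.

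Mice of the genotypes share the numbers 1 to 3 in their titles. The deviations of same-numbered mice from their genotype means correlated by 0.267, −0.000281 and 0.127, and not every mouse correlated best with its own number, so the numbers were not taken as pairs. With the replicate number as a block, 835 genes (6.17%) were called by edgeR, 4.94% of all genes higher, among them 2 of the 31 members higher in LiKM, Hmgcs1 (adjusted p = 0.0220) and Pmvk (0.0239), and 0 lower. That share of members is near the share of all genes. The cause of these shifts was not tested.

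Mylip and Abcg1 did not exceed 12.8 CPM in any library, and the part of depth in the missed calls was not tested. With 3 mice per genotype and the LiK spread seen here, a missed threshold does not show equal levels.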

Other observations

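Fatty acid synthesis genes, which the related factor SREBP-1 drives, had mean levels in the same order among LiK mice as the cholesterol synthesis genes. The order differed among LiKM mice, where LiKM 3 was lowest for fatty acid synthesis and LiKM 1 for cholesterol synthesis. Of 10 fatty acid synthesis genes listed and tested, 0 were called by edgeR, and 0 had an unadjusted p under 0.05. Srebf1 lay at 481, 819.5 and 181 CPM in LiKM 1, LiKM 2 and LiKM 3 and at 399.5, 621 and 674 CPM in LiK 1, LiK 2 and LiK 3, and was lowest in LiKM 3, which had a high synthesis mean for cholesterol. Fasn, the fatty acid synthase gene, lay at 546, 2291 and 725 CPM in LiKM and 426, 719 and 1101 CPM in LiK, and was highest in LiKM 2. Scd1, the stearoyl-CoA desaturase gene, lay at 2072, 5608 and 7908 CPM in LiKM and 1853, 4530.0 and 10264 CPM in LiK. It was lowest in LiK 1 and highest in LiK 3, like many cholesterol synthesis genes among the LiK mice. Thrsp, a lipogenic gene that responds to feeding and thyroid hormone, lay at 1378, 1699 and 221 CPM in LiKM and 2595, 2278 and 1240.4 CPM in LiK. It was lowest in LiKM 3, the mouse with the high Insig2 level. The mean log2 CPM of the list, set against the LiK mean, was −0.59, 0.45 and −0.68 in LiKM 1, LiKM 2 and LiKM 3, and −0.47, 0.10 and 0.37 in LiK 1, LiK 2 and LiK 3.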
